A study of Homo sapiens with 4 samples.

Results

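The Kruppel-like factors (KLFs) are transcription factors that bind GC-rich and CACCC-containing DNA through zinc fingers at their C-terminal end. KLF2, KLF4, KLF5, KLF6 and KLF7 mostly activate transcription, KLF3 represses it through the corepressor CTBP, and KLF9, KLF10, KLF11 and KLF13 repress through the corepressor SIN3A. In epithelia KLF4 is linked to cell cycle exit and differentiation and KLF5 to proliferation. In the pancreas of mice both have been linked to early steps of ductal neoplasia. The genes described here were chosen by name, as the 10 genes KLF2, KLF3, KLF4, KLF5, KLF6, KLF7, KLF9, KLF10, KLF11 and KLF13, and all 10 were found among the 16834 genes of the deposited table.

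Cells labelled as the human pancreatic ductal adenocarcinoma (PDAC) line MIA PaCa-2, with wild-type genotype in every group, were compared in 4 conditions. They were left untreated (control), given neobractatin (NBT, a compound of the plant Garcinia bracteata) at 1 µM, given the MEK kinase inhibitor trametinib at 5 µM, or given both (combination), for 12 h. Each condition gave 1 RNA library, read on the BGISEQ-500 instrument. Without replicates, no value has a check against the variation between cultures, and every interval below covers counting error only. The intervals treat reads as independent, and they may be too narrow even for counting error, since PCR copies are not independent molecules.

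Estimated counts summed to between 18776212 and 19614763 per library, and the limit of detection, taken as 3 counts, lay between 0.153 and 0.160 CPM (counts scaled to a common library sum). All 10 MAPK output genes that were examined as a check on the trametinib labels, such as the phosphatase gene DUSP6, were lower under trametinib (median log2 fold change -3.27) and under the combination (-3.13), whereas under NBT 1 of them, ETV5, was higher and none was lower. The epithelial genes KRT8, KRT18 and EPCAM were abundant in all libraries, while the endothelial gene CDH5, the fibroblast gene COL1A2 and the acinar gene CPA1 had at most 2 reads. The leukocyte gene PTPRC had 8 to 17 reads, the endothelial gene PECAM1 14 to 26 and the fibroblast gene COL1A1 27 to 98. KRT19, INS and PRSS1 were looked for and were not among the 16834 genes with values. In the 2 libraries that received trametinib, KRT8, KRT18, KRT7 and the ductal gene SOX9 were lower than in the other 2, and VIM was higher. SOX9 was there at 4.39 and 5.00 TPM, a level per transcript length scaled to a common library sum, against 31.59 and 25.03 TPM. Other epithelial genes did not follow this. MUC1 was higher with trametinib (229 and 138 reads, against 63 and 83). EPCAM was at 209.12 to 242.36 TPM in all libraries, and CDH1 was lower in the 2 libraries that received NBT. The part of these genes in the results below was not tested. The data went against the cell line label in part. CDKN2A, which MIA PaCa-2 is known to lack through a deletion, had 2643 reads in the control, 2674 under NBT, 3524 under trametinib and 3187 under the combination. The E-cadherin gene CDH1 had 51.21 to 86.91 TPM and the vimentin gene VIM 11.48 to 26.39 TPM, although the line is known as poor in E-cadherin and rich in vimentin. The characteristics in the labels also give the line a different number in each treated library. The line is therefore named here only as labelled.

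The promoters of KLF2, KLF4 and KLF6 are shown first because these were the genes that passed the limits described below. The windows come from RefSeq (GRCh38.p14) and run from 250 bases before to 50 bases after the start of each gene, 5′ to 3′ on the gene's own strand. They lie at chr19:16324576-16324875 (plus strand) for KLF2, at chr9:107489720-107490019 (minus strand) for KLF4 and at chr10:3785160-3785459 (minus strand) for KLF6. Capitals mark 3 motifs on either strand. They are the GC box with the letters GGGCGG, the CCAAT box, whose letters are its name, and the core of the cAMP response element, whose letters are TGACG.
KLF2: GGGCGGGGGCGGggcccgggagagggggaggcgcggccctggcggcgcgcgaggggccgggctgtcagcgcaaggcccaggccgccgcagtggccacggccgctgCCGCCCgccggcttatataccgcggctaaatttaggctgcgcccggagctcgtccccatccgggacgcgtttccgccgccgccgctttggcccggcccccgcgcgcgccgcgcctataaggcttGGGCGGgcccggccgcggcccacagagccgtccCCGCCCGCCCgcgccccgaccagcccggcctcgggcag
KLF4: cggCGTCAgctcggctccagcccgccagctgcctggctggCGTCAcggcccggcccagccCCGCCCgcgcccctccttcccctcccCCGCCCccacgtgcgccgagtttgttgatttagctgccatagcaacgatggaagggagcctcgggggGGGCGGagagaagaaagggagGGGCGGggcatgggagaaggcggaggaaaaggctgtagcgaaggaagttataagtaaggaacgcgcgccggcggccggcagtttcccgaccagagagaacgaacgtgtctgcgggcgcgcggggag
KLF6: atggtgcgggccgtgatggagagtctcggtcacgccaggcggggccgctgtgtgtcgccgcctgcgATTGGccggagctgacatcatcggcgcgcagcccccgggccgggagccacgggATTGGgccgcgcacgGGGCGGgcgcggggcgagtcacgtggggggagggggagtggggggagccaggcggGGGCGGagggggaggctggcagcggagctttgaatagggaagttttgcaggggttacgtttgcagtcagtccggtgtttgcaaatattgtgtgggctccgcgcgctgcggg

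The KLF2 window held 6 GC boxes, some of which adjoin or overlap, and none of the other motifs searched. The KLF4 window held 4 GC boxes and 2 TGACG cores, and the KLF6 window 2 GC boxes and 2 CCAAT boxes. RefSeq windows were used for 8 of the 10 genes (13 windows, since some genes have several starts). None was matched for KLF3, and any window of these genes on chromosome 8, where KLF10 lies, was left out. No chromosome was left out of the set of all promoter windows used for comparison. A GC box was found in 8 of the 13 windows (61.5%) and in 44.9% of 34796 promoter windows of the same length. The CACCC box (CACCC), the sequence after which the binding site of the family is often named, was found in 7 of the 13 (53.8%) against 59.8% of all windows, and in none of the KLF2, KLF4 and KLF6 windows. CCAAT was found in 6 (46.2%, against 34.6%) and TGACG in 4 (30.8%, against 24.5%). The AP-1 site (TGANTCA), the ETS site (CCGGAA) and the antioxidant response element (TGACNNNGC, which can share bases with TGACG) were found in 0 of the 13, against 7.73%, 17.2% and 13.3% of all windows. The TATA box (TATAAA) was found in 1 window, of KLF5 (7.69%, against 11.6% of all windows). The CArG box was found in 1 window, of KLF7 (7.69%, against 1.3%). The KLF2 window had a GC content of 80.7%, the highest of the 13, and the KLF4 and KLF6 windows had 69.0% and 70.7%. The KLF9 window had the lowest, 32.7%, and the median of all windows was 58.7%.

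The level of the genes in the control library spanned from no read to 37.13 TPM. KLF6 (37.13 TPM, 95% Poisson interval 35.3 to 39.0) and KLF5 (33.52 TPM, 31.5 to 35.6) were highest, and their intervals overlapped. KLF10 followed with 19.86 TPM (18.2 to 21.6), apart from its neighbours on both sides. KLF4 (11.18 TPM), KLF13 (10.88), KLF3 (9.50) and KLF2 (9.43) stood next, and neighbours in this order had overlapping intervals, as did KLF11 (7.67) and KLF7 (7.43). KLF9 had 0 of 18776212 reads in the control, which allows a level of up to 0.160 CPM. KLF6 stood above 75.1% of all genes in the control and above 90.3% in the combination library.

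**Figure D1:**
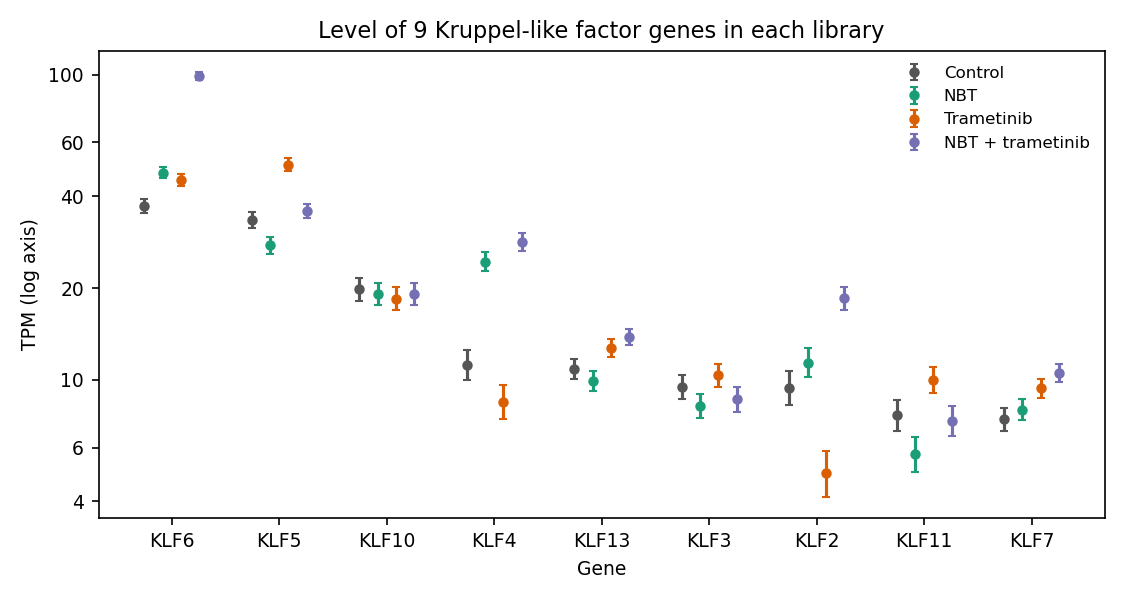
Level of 9 Kruppel-like factor genes in TPM (log axis) in the control, NBT, trametinib and combination libraries, with points for the single library of each condition and bars for the 95% Poisson interval. KLF6 under the combination (98.84 TPM) stands above every other value, and KLF2 spans from 4.95 TPM under trametinib to 18.59 TPM under the combination. KLF9, with at most 4 reads, is not plotted.

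The summed level of the 10 genes was 146.6 TPM in the control, 162.2 TPM under NBT, 170.1 TPM under trametinib and 241.1 TPM under the combination. KLF6 made up 25.3% of this sum in the control and 41.0% under the combination. The share of KLF5 was 22.9% in the control, 17.1% under NBT, 29.8% under trametinib and 14.8% under the combination. In bulk RNA, a change in the share of cells that use a gene and a change in its RNA per cell cannot be told apart.

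**Figure D2:**
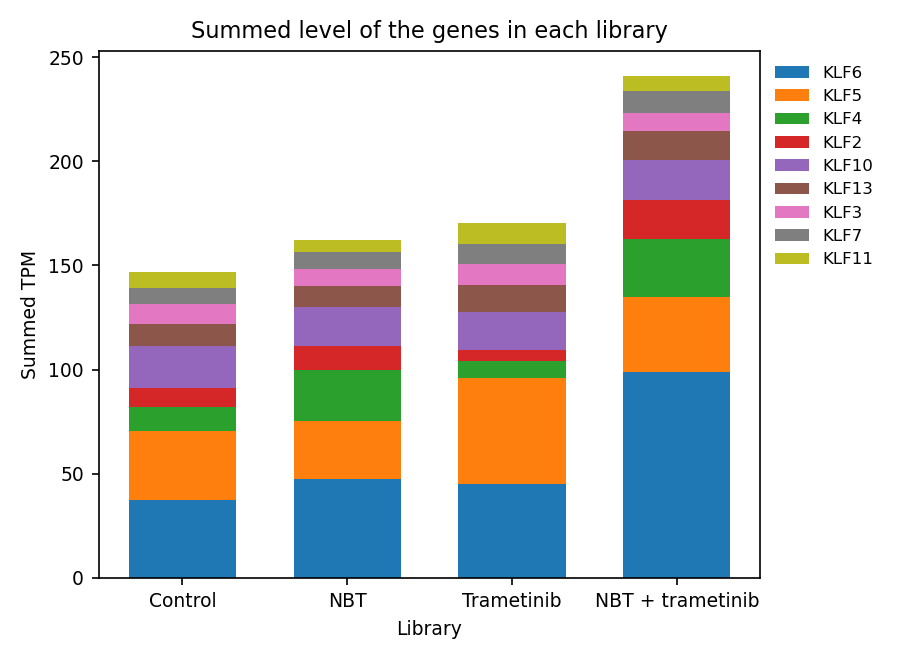
Summed TPM of the genes in each library, stacked by gene, with 1 bar per library. The combination bar (241.1 TPM) is the tallest, and its KLF6 part (98.84 TPM) is larger than that of the control (37.13 TPM).

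To find which of the factors each treatment changed, the libraries were compared in pairs with an exact binomial test of their counts, adjusted over all genes by the Benjamini-Hochberg method. A gene passed the limits, taken from the study's methods, where its false discovery rate was 0.05 or less and its log2 ratio was 1 or more in size. The test compares libraries and not conditions, so no p-value is given. Only genes past these limits are said to have risen or fallen.

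The 3 comparisons with the control share that library. Against it, KLF4 alone passed under NBT (1 of the 10, higher). Over all 15888 genes tested 2.61% passed, 1.60% as higher. Under trametinib 0 of the 10 passed, against 5.96% of 16197 genes. Under the combination KLF2, KLF4 and KLF6 passed (3 of the 10, all higher), against 8.42% of 16229 genes in either direction and 4.73% as higher. With cultures assumed to vary by a coefficient of variation of 0.2 (negative binomial test), 0 of the 10 were called under NBT and 2 under the combination (KLF4 and KLF6). Over the 9 genes with more than 4 reads, the log2 fold changes had a median of 0.01 under NBT, 0.27 under trametinib and 0.40 under the combination, and over all genes tested one of -0.01, 0.08 and 0.05.

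Many of the other differences were below 2-fold but larger than counting error. At a false discovery rate of at most 0.05 with no limit on the ratio, 5 of the 10 genes differed under NBT (3 higher, 2 lower), against 35.5% of all genes tested. Under trametinib 7 differed (5 higher, 2 lower), against 42.7%. Under the combination 5 differed, each of them higher (KLF2, KLF4, KLF6, KLF7 and KLF13). Over all genes tested 49.6% differed in either direction, 25.8% as higher and 23.9% as lower.

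**Figure D3:**
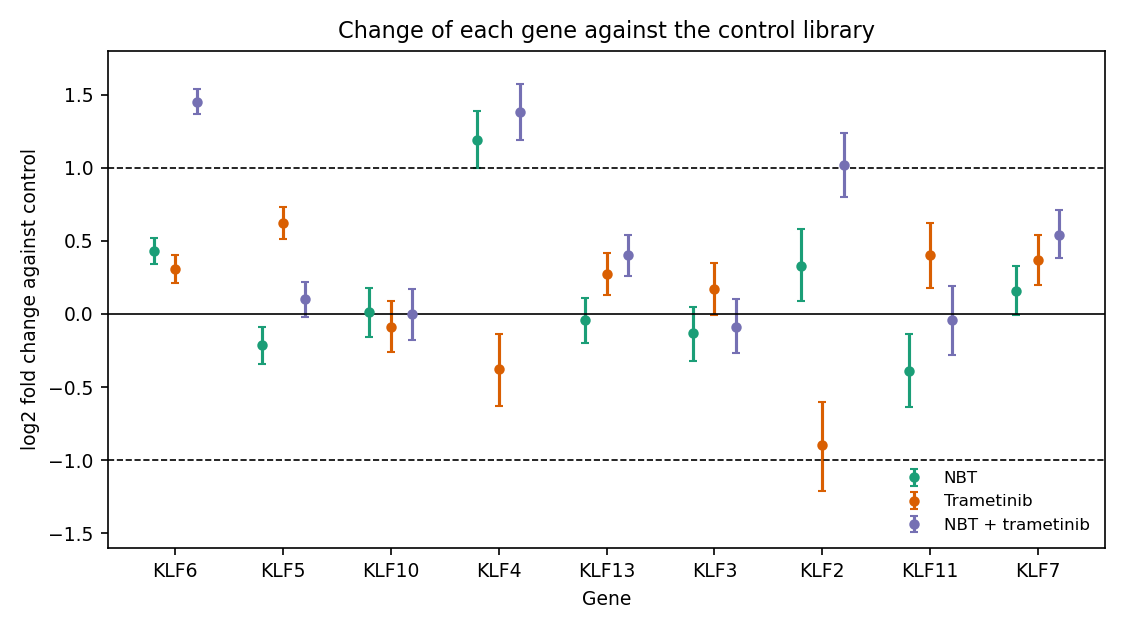
Log2 fold change of 9 genes against the control library under NBT, trametinib and the combination. Bars are 95% Clopper-Pearson intervals for counting error, and dashed lines mark the limit of 1 in either direction. KLF4 lies past the line under NBT (1.19) and under the combination (1.38), KLF6 (1.45) and KLF2 (1.02) under the combination only, and KLF2 under trametinib (-0.90) lies inside it.

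KLF6, an activator induced early after tissue injury, showed the largest change of the 9 genes in the combination library. It had 1622 reads in the control (37.13 TPM), 2261 under NBT (47.68 TPM), 2025 under trametinib (45.08 TPM) and 4641 under the combination (98.84 TPM). All 3 treated libraries stood above the control, and the combination stood far above the other two treated libraries. The rise under the combination was 2.74-fold (log2 fold change 1.45, 95% interval 1.37 to 1.54). This interval lies within that of KLF4 (1.38, 1.19 to 1.57), so the order of KLF6 and KLF4 is not resolved. For KLF6 the single drugs gave 0.43 (0.34 to 0.52) under NBT and 0.31 (0.21 to 0.40) under trametinib, both short of the limit. KLF6 (NCBI Gene 1316) lies on chromosome 10, from 3775996 to 3785209 on the minus strand of GRCh38, and no other annotated gene overlaps it.

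KLF4, which promotes epithelial differentiation and is one of the factors used to reprogram cells to pluripotency, was higher wherever NBT was given. It had 313 reads in the control (11.18 TPM), 741 under NBT (24.43 TPM), 242 under trametinib (8.46 TPM) and 849 under the combination (28.29 TPM). Both libraries that received NBT were high and both that did not were low. The rise was 2.28-fold under NBT (log2 fold change 1.19, 1.00 to 1.39) and 2.59-fold under the combination (1.38, 1.19 to 1.57). With trametinib alone KLF4 was 1.30-fold lower (-0.38, -0.63 to -0.14), short of the limit. KLF4 (NCBI Gene 9314) lies on chromosome 9, from 107484852 to 107489769 on the minus strand, with no overlapping gene.

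KLF2, which holds endothelial cells and T cells in a quiescent state and is induced through the kinase ERK5 and MEF2 factors, stood at opposite ends in the 2 libraries that received trametinib. It had 252 reads in the control (9.43 TPM), 329 under NBT (11.36 TPM), 136 under trametinib (4.95 TPM) and 533 under the combination (18.59 TPM). The library with trametinib alone was lowest and the combination highest. The rise under the combination was 2.02-fold (log2 fold change 1.02, 0.80 to 1.24), at the limit itself, and it was 0.97 to 0.99 with 3 other scalings, which ends the call. With trametinib alone KLF2 was 1.87-fold lower (-0.90, -1.21 to -0.60), and with NBT alone its log2 fold change was 0.33 (0.09 to 0.58). KLF2 (NCBI Gene 10365) lies on chromosome 19, from 16324826 to 16328685 on the plus strand, with no overlapping gene.

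KLF5, which drives proliferation in epithelial crypts, showed the reverse order of the single drugs from KLF4. It had 1067 reads in the control (33.52 TPM), 952 under NBT (27.68 TPM), 1654 under trametinib (50.73 TPM) and 1198 under the combination (35.75 TPM). The trametinib library was highest and the NBT library lowest, and the combination lay near the control. The log2 fold change was 0.62 (0.51 to 0.73) under trametinib, -0.21 (-0.34 to -0.09) under NBT and 0.10 (-0.02 to 0.22) under the combination, none past the limit. The ratio of KLF5 to KLF4, in TPM, was 3.0 in the control, 1.13 under NBT, 6.0 under trametinib and 1.26 under the combination. KLF5 thus exceeded KLF4 in every library, and by least in the 2 libraries that received NBT. In the trametinib library KLF5 also stood above KLF6 (50.73 against 45.08 TPM), whereas KLF6 was first in the other three libraries. KLF5 (NCBI Gene 688) lies on chromosome 13, from 73054976 to 73077538 on the plus strand, with no overlapping gene.

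KLF7, an activator known from neuronal development, had 517 reads in the control, 599 under NBT, 675 under trametinib and 788 under the combination. Its log2 fold change was 0.16 (-0.01 to 0.33), 0.37 (0.20 to 0.54) and 0.54 (0.38 to 0.71) in the same order of treatments. The trametinib and combination libraries were thus above the control beyond counting error, and neither reached the limit.

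None of KLF3, KLF9, KLF10, KLF11 and KLF13, described above as repressors, passed the limits in any pair of libraries compared. Over all genes tested 2.61% to 8.42% passed, so few or no calls would be met among so few factors. KLF9 had at most 4 reads and could hardly have passed. KLF13, a regulator of the chemokine gene CCL5 in T cells, had 704 reads in the control, 707 under NBT, 858 under trametinib and 971 under the combination, and its log2 fold change under the combination was 0.40 (0.26 to 0.54). KLF11, known as a TGF-beta-inducible early gene, had 295, 233, 393 and 299 reads in that order. It was lower under NBT (-0.39, -0.64 to -0.14), higher under trametinib (0.40, 0.18 to 0.62) and within counting error of the control under the combination (-0.04, -0.28 to 0.19).

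KLF10, another TGF-beta-inducible early gene, differed least between libraries, with 553 reads in the control, 576 under NBT, 525 under trametinib and 576 under the combination. Its 3 intervals against the control all included 0 and together spanned -0.26 to 0.18 on the log2 scale. KLF3 had 477, 450, 540 and 469 reads in the same order, and its intervals against the control also included 0. On the opposite strand KLF3-AS1 overlaps KLF3, AC104794.4 overlaps KLF11 and MIR7845 overlaps KLF7, and how strand was treated in the counting is not given in the sources used here, so reads of such partners cannot be told apart. On the same strand UBE2CP4 overlaps KLF13, and MIR2355 and KLF7-IT1 overlap KLF7. KLF9, a factor induced by steroid and thyroid hormones, had 0 reads in the control, 1 under NBT, 1 under trametinib and 4 under the combination. With so few reads no difference was detectable at this depth.

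When NBT was added to trametinib (the combination against the trametinib library), the same 3 names passed as against the control, with larger ratios for 2 of them. KLF2 was 3.78-fold higher (log2 ratio 1.92, 1.65 to 2.2), KLF4 was 3.38-fold higher (1.76, 1.55 to 1.97) and KLF6 was 2.21-fold higher (1.15, 1.07 to 1.22). Over all 16343 genes tested 6.11% passed, 2.56% as higher. In this pair KLF5 (-0.51, -0.62 to -0.41), KLF11 (-0.44, -0.67 to -0.22) and KLF3 (-0.25, -0.43 to -0.07) were lower beyond counting error, all short of the limit. At a false discovery rate of at most 0.05 with no limit on the ratio, 24.8% of all genes tested were lower and 20.7% higher. With an assumed coefficient of variation of 0.2, KLF2 and KLF4 were still called and KLF6 was not. Both comparisons use the combination library.

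When trametinib was added to NBT (the combination against the NBT library), KLF6 alone passed (1 of the 10, higher), against 4.36% of 16250 genes in either direction and 2.38% as higher. KLF6 was 2.03-fold higher (log2 ratio 1.02, 0.95 to 1.10), and 0.99 under TMM scaling, which ends the call, as does an assumed coefficient of variation of 0.2. KLF2 had a log2 ratio of 0.68 (0.48 to 0.89), KLF13 of 0.44 (0.30 to 0.59), KLF7 of 0.38 (0.23 to 0.54), KLF11 of 0.35 (0.09 to 0.60), KLF5 of 0.32 (0.19 to 0.44) and KLF4 of 0.18 (0.04 to 0.33). Of the 9 genes with more than 4 reads, 8 had a ratio above 0 in this pair, with a median of 0.35. Over all genes tested the median was 0.03, and 53.5% of 10493 genes with at least 100 reads had a ratio above 0.

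To ask whether the combination exceeded what the single drugs add up to, the sum of the 2 single-drug log2 fold changes was set beside the log2 fold change of the combination. A departure of at least 1 was found for 1 of the 9 genes with at least 50 reads, KLF2, and for 2.33% of 11367 genes. The single drugs summed to -0.57 for KLF2 and the combination gave 1.02, a departure of 1.58 (95% interval from the 4 counts, 1.22 to 1.94), larger in size than that of 99.3% of these genes. For KLF6 the sum was 0.74 and the combination 1.45, a departure of 0.72 (0.60 to 0.84). For KLF4 the sum was 0.81 and the combination 1.38, a departure of 0.57 (0.29 to 0.85).
KLF5 departed downward, by -0.30 (-0.47 to -0.14). The intervals of KLF3, KLF7, KLF10, KLF11 and KLF13 included 0, with departures between -0.12 and 0.17. The direction of the trametinib difference for KLF2 was opposite in the absence (-0.90) and in the presence (0.68) of NBT.

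**Figure D4:**
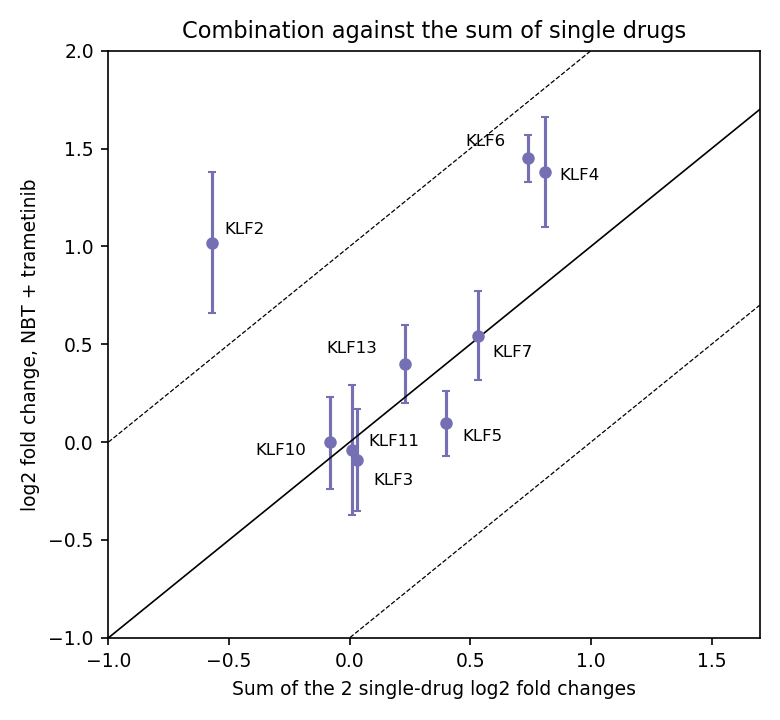
Log2 fold change of 9 genes under the combination (vertical) against the sum of the 2 single-drug log2 fold changes (horizontal), with bars for the 95% counting interval of the departure. The solid line marks equality and the dashed lines a departure of 1. KLF2 lies above the upper dashed line (departure 1.58), and KLF6 and KLF4 lie between the solid and the upper dashed line.

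Estimated counts per RefSeq transcript showed how these changes divided within genes. Splitting reads between transcripts of 1 gene is an estimate, and its error cannot be had from these files. The 10 genes themselves had whole-number counts (within 0.005 of a read) in all 4 libraries, as had 46.1% of all genes, as holds where no read is divided with another gene. For KLF6, NM_001300.6 had 1251.07 reads in the control and 4349.05 under the combination (log2 fold change 1.73), while NM_001160125.1 had 370.93 and 291.95 (-0.41). The first took 77.1% of KLF6 reads in the control, 90.6% under NBT, 86.5% under trametinib and 93.7% under the combination. The higher KLF6 level was thus assigned to 1 of its 2 transcripts.

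For KLF4, NM_004235.6 had 262.87 reads in the control, 630.31 under NBT, 242 under trametinib and 734.78 under the combination, and took at least 84.0% of the reads in every library. For KLF5, NM_001286818.1 had 0 reads in the control, 21.02 under NBT, 33.09 under trametinib and 167.27 under the combination, where it took 14% of KLF5 reads. The main KLF5 transcript NM_001730.5 had 1067 and 1030.73 reads in the control and combination libraries. In KLF10, the minor transcript NM_001032282.3 had 37.7 reads in the control and 78.18 under the combination. KLF2 and KLF9 have 1 transcript each in the table.
The transcripts of KLF7 show the limits of such estimates. Of the 9 listed, 3 had reads in all 4 libraries, and XM_005246926.3 had 101.44 reads in the control, 0 with either single drug and 162.79 under the combination. In KLF11, NM_001177716.1 had 0 reads in the control, 126.36 under NBT, 47.69 under trametinib and 112.99 under the combination.

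**Figure D5:**
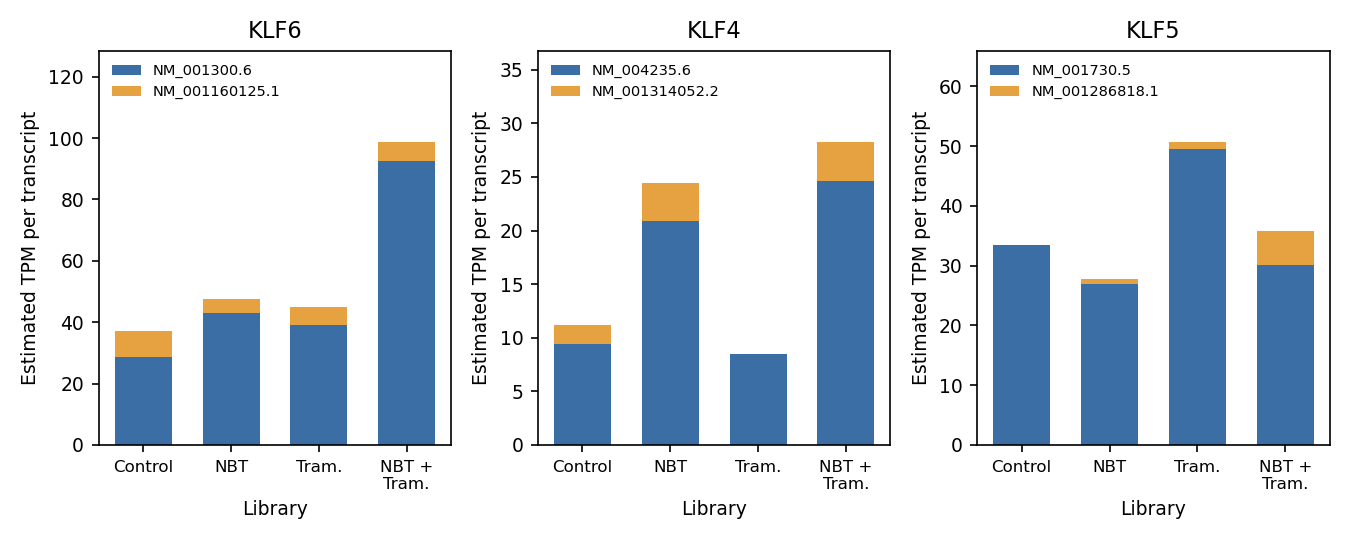
Estimated TPM of the 2 listed transcripts each of KLF6, KLF4 and KLF5 in the 4 libraries, stacked, with 1 bar per library. In KLF6 the part of NM_001300.6 is 28.56 TPM in the control and 92.55 TPM under the combination, and that of NM_001160125.1 is 8.57 and 6.28 TPM.

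Among 10662 genes with at least 100 reads in 1 or more libraries, those with the pattern most like each called factor were found by the Euclidean distance between their 3 log2 fold changes against the control, over the 4 libraries. Closest to KLF2 was JUN (distance 0.32), a subunit of AP-1, with 2598 reads in the control, 3255 under NBT, 1604 under trametinib and 4619 under the combination. ABCC2 (0.386), a drug efflux pump, and PDIA5 (0.457), a protein disulfide isomerase of the endoplasmic reticulum, came next. Closest to KLF4 were SMOX (0.118), the spermine oxidase, SYVN1 (0.22), a ubiquitin ligase of endoplasmic reticulum-associated degradation, and SDF2L1 (0.229), an endoplasmic reticulum protein. Closest to KLF6 were GEM (0.153), a small GTPase, PIGA (0.157), an enzyme of GPI anchor synthesis, and ASF1A (0.162), a histone chaperone. Among the factors themselves, KLF2 was nearest to KLF4 (1.06), KLF4 to KLF6 (1.03) and KLF6 to KLF7 (0.95), which passed the limits in no pair.

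The other genes of the family and its partners did not pass the limits, and those named in this paragraph were picked after their values were seen. Of 17 further KLF and SP factors 15 were in the table, and 0 passed in any of the 5 comparisons, in which 2.61% to 8.42% of all genes tested passed. Of the 15, 5 had at most 5 reads in every library and could hardly have passed. The highest of them in the control was KLF16, a factor of the SIN3A-binding group, with 1246 reads there (45.29 TPM, above every one of the 10 genes), 1080 under NBT, 941 under trametinib and 947 under the combination (log2 fold change -0.46). SP1, which binds GC boxes in most cells, had 1503, 1726, 1681 and 1903 reads in that order (0.28 for the combination). The medians of the 15 were -0.11, 0.13 and -0.29 against the control, in the same order of treatments, and -0.11, 0.02 and 0.02 over the 7 of them with a mean of at least 100 reads, a limit set after the data were seen. Of 11 cofactor and ubiquitin ligase genes, such as SIN3A, CTBP1, EP300 and the KLF5 ubiquitin ligase gene WWP1, 0 passed, with medians of -0.05, 0.02 and -0.19. Of 7 genes of the ERK5 and MEF2 route to KLF2 and KLF4, 0 passed, with medians of 0.09, 0.17 and 0.37. At the shares over all genes above, few or no calls would be met in lists this short. MAPK7, which encodes ERK5, had 923, 1016, 931 and 963 reads, and MEF2D had 1029, 1191, 866 and 1426, which gave 0.41 on the log2 scale under the combination.

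Of 17 genes reported in other systems as targets of one of the factors, 16 were in the table. Against the control, under NBT 1 rose and 0 fell of 15 tested (2.61% of all genes passed), under trametinib 1 rose and 3 fell of 15 (5.96%), and under the combination 2 rose and 3 fell of 16 (8.42%). The combination had 3 higher and 1 lower against trametinib (6.11%) and 2 higher and 4 lower against NBT (4.36%), both of 16. The medians against the control were 0.09, 0.12 and 0.18, and over the 11 genes with a mean of at least 100 reads they were 0.09, -0.42 and -0.13, which turns the sign for trametinib and for the combination. THBD, the thrombomodulin gene and a target of KLF2 and KLF4 in endothelium, had 113 reads in the control, 253 under NBT, 44 under trametinib and 104 under the combination. It rose under NBT (log2 fold change 1.11) and fell under trametinib (-1.36), and under the combination its value was -0.18. The combination library thus stood near the control for THBD, although it was above the trametinib library (log2 ratio 1.18) and below the NBT library (-1.29). MAOA, a monoamine oxidase gene and a target of KLF11, passed in 1 pair, with 71 reads under trametinib and 149 under the combination (1.01).
NOS3, the endothelial nitric oxide synthase gene and a target of KLF2, had 9, 16, 16 and 43 reads in the same order and rose under the combination (2.13). CDKN1A, a cell cycle inhibitor gene and a target of KLF4 and KLF6, had 550, 958, 1907 and 2294 reads and rose under trametinib (1.78) and under the combination (2.0). CCND1, the cyclin D1 gene and a target of KLF5, had 8472, 4693, 1315 and 323 reads and fell under trametinib (-2.70) and under the combination (-4.77). PLAU fell with both as well (-1.6 and -2.35), and SMAD7, a gene that KLF10 and KLF11 repress, fell under the combination (-1.22, from 177 to 79 reads). CCND1 is also among the MAPK output genes above.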

How the data were processed

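RNA of 4 libraries, 1 per condition, was sequenced on the BGISEQ-500 platform. The submitters' processing notes name Bowtie2 2.2.5, RSEM 1.2.8 and hg38 and the labels mention a kit for bacterial ribosomal RNA. Per gene and per RefSeq transcript, the authors deposited estimated counts (not normalized), TPM values (per length, to a fixed sum) and FPKM values (per length and mapped fragments). Libraries were grouped by the treatment in the labels. Here counts were rounded and scaled to library sums, and 0.5 reads were added for log2 ratios. Pairs were tested with the exact two-sided binomial test, over genes counted at least 1 time in the pair. Ratio intervals are 95% Clopper-Pearson intervals. The departure interval uses the normal approximation to the 4 counts. The named genes were the 10 factors, genes of 5 lists, and the 3 nearest in pattern to each factor called against the control, while marker genes checked the labels. The factors and lists were chosen with earlier results of these data known. The calling steps were tested on simulated data. Alternatives used edgeR 4.0.16 (TMM, negative binomial exact test) and DESeq2 1.42.0 (size factors) in R 4.3.3, besides Python 3.11.15, scipy 1.17.1 and statsmodels 0.14.6.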

Additional observations from a re-analysis of the deposited data

Results flagged for a closer look

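For KLF2 and KLF4 the difference made by trametinib had opposite signs without and with NBT, each beyond counting error. KLF2 had a log2 ratio of -0.90 for trametinib against control and of 0.68 for the combination against NBT, so that the value with NBT exceeded the one without by 1.58. KLF4 had -0.38 and 0.18, a difference of 0.57. Both differences are the departures from the sum of the single drugs given above, and not a further result. Only the factors were searched for such a change of sign, so its share over all genes is not known. With 1 library per condition these differences were not tested against the variation between cultures.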

How the results depend on the processing

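No paired analysis was possible because each condition has 1 library. Across 6 other scalings, units and ways of counting, the 46 single-gene values moved by at most 0.09 on the log2 scale. KLF2 with the combination gave 0.99 (TMM), 0.98 (median of ratios) and 0.97 (TPM), under the limit of 1, and KLF6 for the combination against NBT gave 0.99 with TMM, where 0 genes were then called. KLF10, within counting error of 0, changed sign with NBT (-0.00 with median of ratios, -0.06 with TPM) and for the combination against NBT (0.00 with TPM). With a negative binomial test, an assumed coefficient of variation of 0.2 left 0 genes called with NBT, 0 for the combination against NBT, and 2 each for the combination against control (KLF4, KLF6) and against trametinib (KLF2, KLF4). A coefficient of 0.4 left 0 in all 5 comparisons, as did a log2 limit of 2, and a departure limit of 2 left 0. With no log2 limit 5 genes were called with NBT, 7 with trametinib, 5 with the combination, 6 for the combination against trametinib and 7 against NBT. Over all genes, the 415, 966, 1367, 998 and 709 calls of the 5 comparisons, in the order NBT, trametinib and combination against control, then combination against trametinib and against NBT, were 69, 365, 547, 302 and 204 at a coefficient of 0.2. They were 4, 22, 51, 14 and 13 at 0.4, then 116, 352, 401, 252 and 251 with a log2 limit of 2, and 5635, 6915, 8056, 7428 and 6079 with none. The 265 departures were 45 with a limit of 2. The true variation between cultures was not measured. KLF9 was left out of these values for its low counts.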
